A study of Homo sapiens with 4 samples.

Results

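The genes described here are 41 genes of DNA replication and of the G1/S transition, measured in SW480 cells, a colorectal adenocarcinoma line. A member was any gene of a fixed list for which the platform annotation gave a probe set that symbol alone. All 41 genes had at least 1 such probe set, 77 in all, out of 19775 genes and 41091 probe sets that carry 1 symbol. The study holds 4 expression arrays: 2 are titled HOXA5 knock down and 2 HOXA5 overexpressing, and HOXA5 is a homeobox transcription factor. All cells were SW480 grown in serum-containing medium and had been transduced, and no untransduced or empty-vector sample is among the 4. The labels give neither the constructs nor whether each population was 1 clone, and they do not say that replicates came from separate cultures. Each p-value therefore measures the spread between these arrays, which may be technical. Every difference below is overexpressing minus knock-down on the log2 scale and cannot be assigned to either manipulation alone.

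Before a cell copies its genome, the origin recognition complex, CDC6 and CDT1 load the MCM helicase onto origins, and geminin blocks CDT1 once S phase has begun. The helicase is then activated by CDC45 and the GINS complex, and polymerases, a sliding clamp and its loader copy the strands with nucleotides made by ribonucleotide reductase and thymidylate synthase. Cyclin E and the E2F factors drive most of these genes at the end of G1, so that in a cycling tumour line they are usually well expressed and tend to move together when the share of dividing cells changes. RNA was taken from whole cultures, so fewer cells in S phase and less RNA per cell cannot be told apart.

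The arrays had near-equal scales, with medians over all probe sets between 5.77 and 5.81. Arrays of 1 group correlated at 0.997 over all probe sets and arrays of different groups at 0.991 to 0.993. HOXA5 itself is not reported here, so these values do not check the labels on the manipulated gene. Among 9 epithelial markers, the keratins KRT8 and KRT18 were near the top of the scale on all arrays (12.84 to 13.86), whereas EPCAM was at 3.81 and 3.65 in the knock-down arrays and at 8.80 and 8.75 in the overexpressing arrays. Of the 9, EPCAM, KRT19 and CDX2 passed, all higher in the overexpressing arrays, and 6 did not pass. Among those that missed, CDH1 gave 0.60 (limma adjusted p = 0.052) and CLDN7, a claudin of epithelial junctions, gave -0.43 (adjusted p = 0.069). Below 0 lay 4 of the 9, and the median of the list was 0.017. The part of these markers in the results on replication genes was not tested. None of 9 measured markers of blood, fibroblast and endothelial cells passed in limma, and 2 had an unadjusted p under 0.05, against 18.6% of all genes. As a sign of RNA integrity, the 3' control probe set of ACTB exceeded its 5' counterpart by 0.41 to 0.46 on the knock-down arrays and by 0.30 to 0.43 on the overexpressing ones.

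Replication and G1/S genes had means above the median gene and differed little between the groups on their brightest probe sets. Each gene was read from its brightest probe set, and on that scale all 41 means lay above the median over genes (6.80), from the 63.2nd percentile (CCNE2) upwards. None of the 41 passed an adjusted p of 0.05 in limma, against 4.77% of all genes and 6.06% of genes above the median level. At an unadjusted p under 0.05 there were 4 (CDC6, GINS1, RRM2 and CCNE1), against 18.6% of all genes and 23.6% of genes above the median level. Differences ran from -0.23 (GINS1, a subunit of the GINS complex) to 0.23 (RRM2, the regulated subunit of ribonucleotide reductase). Their median was -0.016, and the median over all genes was -0.019. Regardless of sign, the median difference was 0.071 among these genes and 0.095 among all genes.

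A difference that misses a threshold does not show equality, so the 95% intervals of the fit were set against a change of 0.5 in either direction. The interval lay within that bound for 40 of the 41 genes, against 85.1% of all genes and 84.5% of those above the median level. The exception was POLD1, the catalytic subunit of polymerase delta, whose interval ran from -0.54 to 0.19. Among the replication genes the typical interval reached 0.20 to either side of its estimate. Among the 944 genes that passed, 234 differed by less than 0.5, and the smallest called difference was 0.36. The largest of a replication gene was 0.23 on its brightest probe set. By probe set, 73 of the 77 intervals lay within the bound, against 82.2% of all probe sets. CDT1 reached -0.46 and CHAF1A 0.62, each on 1 weaker probe set. With 1 array left out, 34 to 39 of the 41 intervals stayed within the bound, as fewer arrays widen them.

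Of the 41 genes, 24 lay below 0 and 17 above it, against 56.4% of all genes and 60.3% of genes above the median level below 0. The groups did not overlap for 17 genes, against 46.9% of all genes and 57.6% of genes above the median level. These were 9 genes higher in the overexpressing arrays (19.1% of all genes) and 8 lower (27.8% of all genes). Among genes above the median level the shares were 21.2% higher and 36.4% lower. A difference of at least 0.2 in either direction was seen for 4 genes, against 21.9% of all genes and 25.6% of genes above the median level. These shares among the replication genes are near or below those of the array as a whole.

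**Figure D1:**
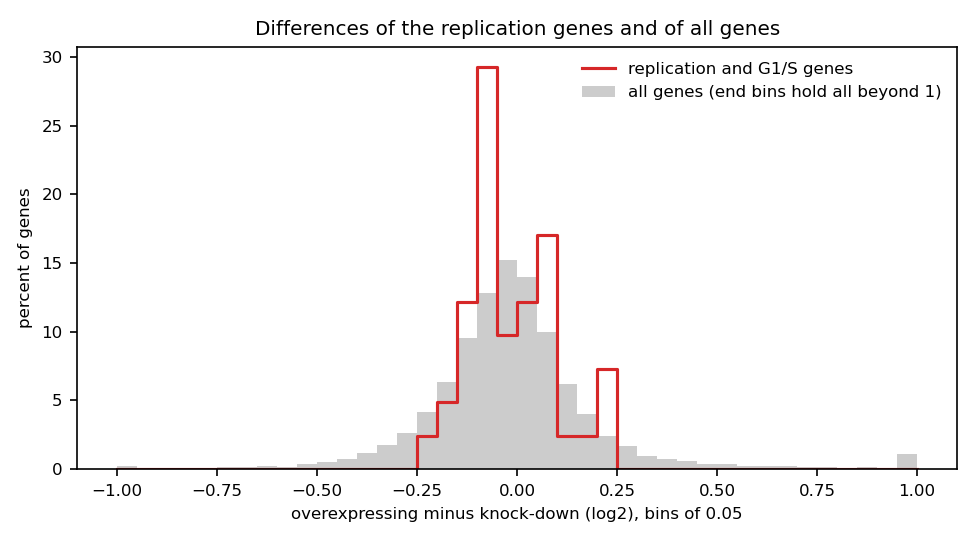
Percent of genes (vertical axis) by overexpressing minus knock-down difference in log2 (horizontal axis, bins of 0.05), for the 41 replication and G1/S genes (red line) and all 19775 genes (grey bars, whose end bins hold everything beyond them). The red line stays between -0.23 and 0.23, whereas the grey bars have tails on both sides.

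E2F factors bind variants of a TTTNNCGC element, so the promoters were read for these letters to see what the genes share in sequence. RefSeq windows of 250 bases before to 50 after the start (GRCh38.p14) were at hand for 35 of the 41 genes, as 44 windows. On either strand, TTTNNCGC occurred in 20 of the 44 windows, those of 20 genes, against 6.89% of 35116 windows in all. The variant TTTGGCGC was in 8 windows (0.652% of all) and TTTCCCGC in 9 (1.63% of all). CCAAT, the letters bound by the factor NF-Y, was in 26 windows, against 34.6% of all. The first 4 stretches below are the 100 bases before the start in genes with the E2F-type letters, for E2F factors and helicase loading. Capitals mark TTTNNCGC on either strand, and matches that overlap run together.
E2F1, chr20:33686386-33686485, minus strand: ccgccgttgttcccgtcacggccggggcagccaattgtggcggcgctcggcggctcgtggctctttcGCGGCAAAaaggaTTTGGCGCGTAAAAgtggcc
E2F2, chr1:23531234-23531333, minus strand: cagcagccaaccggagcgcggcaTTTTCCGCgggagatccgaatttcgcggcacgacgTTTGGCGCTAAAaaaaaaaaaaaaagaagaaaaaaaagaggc
MCM6, chr2:135876444-135876543, minus strand: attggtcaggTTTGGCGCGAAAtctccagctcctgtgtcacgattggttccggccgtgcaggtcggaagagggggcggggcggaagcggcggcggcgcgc
CDT1, chr16:88803689-88803788, plus strand: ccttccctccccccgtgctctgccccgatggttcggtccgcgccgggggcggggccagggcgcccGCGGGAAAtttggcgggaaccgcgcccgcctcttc
The other 2 are the same stretch of the genes with the largest positive differences on their brightest probe sets. Neither holds TTTNNCGC in the 300-base window, and capitals mark CCAAT, which this stretch of CCNE1 does not hold.
RRM2, chr2:10122639-10122738, plus strand: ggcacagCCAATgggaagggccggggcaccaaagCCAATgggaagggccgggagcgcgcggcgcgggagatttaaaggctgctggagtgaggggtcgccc
CCNE1, chr19:29811891-29811990, plus strand: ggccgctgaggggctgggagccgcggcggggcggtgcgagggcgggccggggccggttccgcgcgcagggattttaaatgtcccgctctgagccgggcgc
The 20 genes with TTTNNCGC had differences from -0.23 to 0.19 (median -0.058, 13 below 0), and the 15 genes without it from -0.17 to 0.23 (median 0.0053, 7 below 0). Both ranges straddle 0 and overlap nearly throughout. A match says only that these letters are in the window.

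Among the G1/S regulators, on their brightest probe sets, the genes of both E-type cyclins lay above 0, E2F1 at about 0 and E2F2 below it. CCNE1, encoding cyclin E1, was at 8.78 and 8.66 in the knock-down arrays and at 8.89 and 8.98 in the overexpressing arrays. CCNE2, encoding cyclin E2, was at 7.75 and 7.63 against 7.95 and 7.83. Both cyclin genes were higher on each overexpressing array than on either knock-down array. The difference of CCNE1 was 0.22 ± 0.084 (SE, 1.16-fold, limma adjusted p = 0.24) and that of CCNE2 was 0.20 ± 0.088 (1.15-fold, adjusted p = 0.29), so neither passed. The weaker probe sets gave 0.20 for CCNE1 and 0.13 for CCNE2, also without overlap of the groups. Groups without overlap were seen in 46.9% of all genes and 45.1% of all probe sets.

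The activator E2F1 was at 8.69 and 8.64 in the knock-down arrays and at 8.62 and 8.71 in the overexpressing arrays, a difference of 0.00093 with an interval of -0.19 to 0.19. Its weaker probe set was at 7.83 and 7.84 against 7.75 and 7.74, a difference of -0.092. E2F2, a related activator, was at 9.13 and 9.14 against 9.00 and 8.97. It lay lower on both overexpressing arrays, and groups without overlap were seen in 46.9% of all genes. Its difference of -0.15 did not pass (adjusted p = 0.36), and its weaker probe sets gave -0.071 and -0.048.

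**Figure D2:**
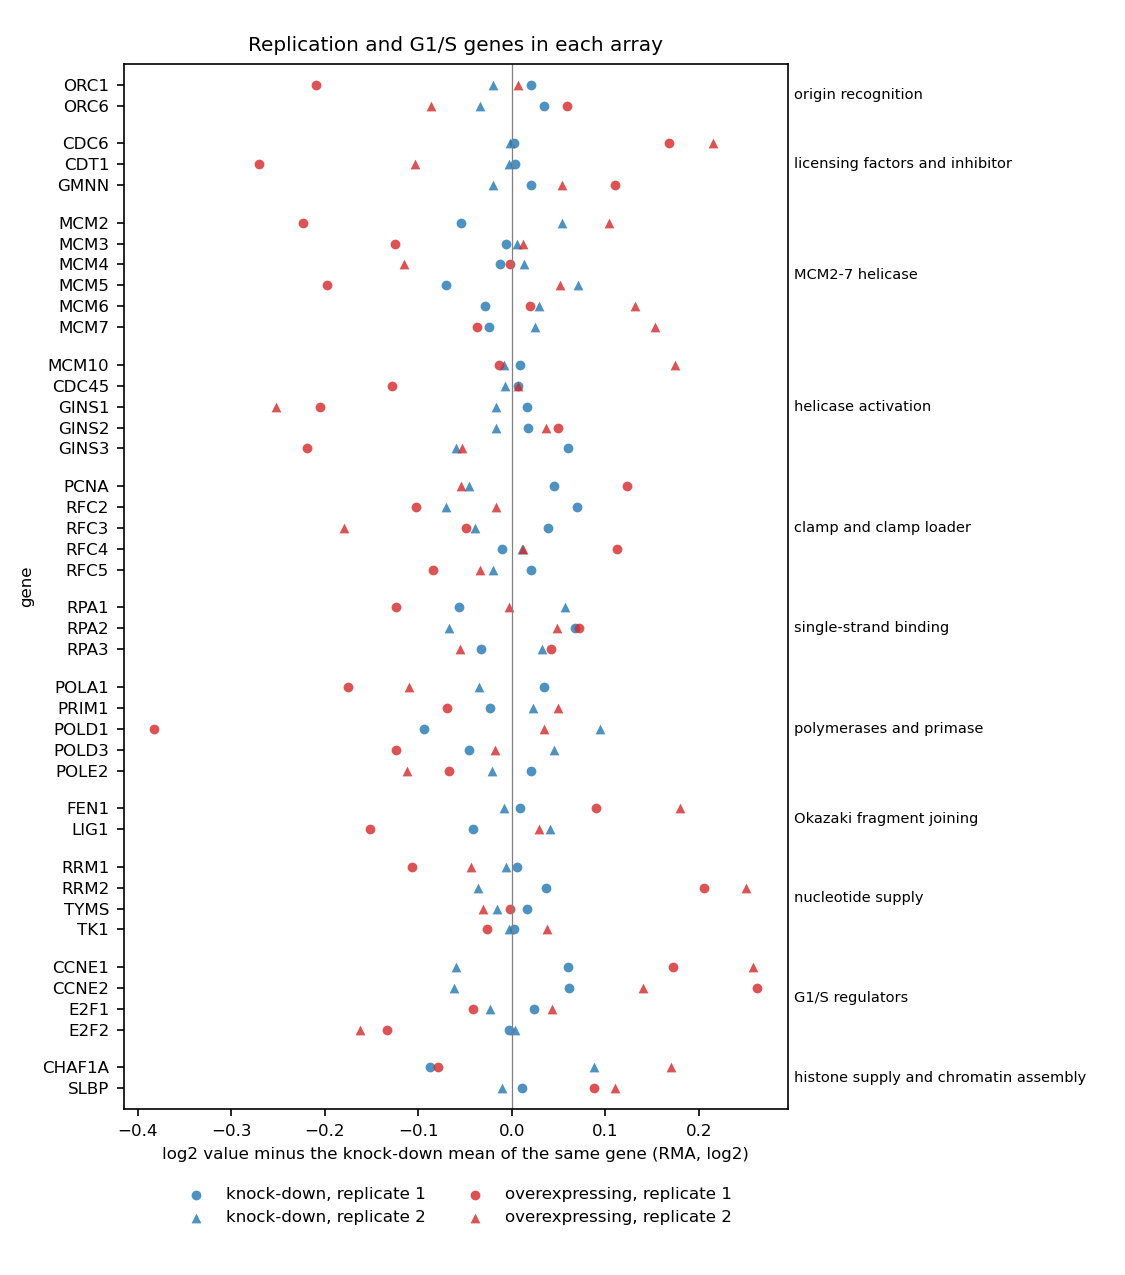
Log2 value of each gene on each array minus that gene's knock-down mean (horizontal axis), with genes by role (vertical axis), knock-down arrays in blue, overexpressing arrays in red, replicate 1 as circles and replicate 2 as triangles. CDC6, RRM2, CCNE1 and CCNE2 have both red points right of both blue points, GINS1 and CDT1 have both left of them, and in most MCM genes the colours mix.

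Origin recognition genes did not separate the groups. ORC1, the ATPase subunit whose level rises in G1, was at 8.66 and 8.62 in the knock-down arrays and at 8.43 and 8.65 in the overexpressing arrays. Only overexpressing replicate 1 stood low: without that array the difference of -0.10 became 0.0071. ORC6, the smallest subunit, was at 9.92 and 9.85 against 9.94 and 9.80, a difference of -0.014.

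Of the 3 licensing genes none passed, and in each the groups did not overlap, which held for 46.9% of all genes and 57.6% of genes above the median level. CDC6, the loader ATPase, was at 9.66 on both knock-down arrays and at 9.83 and 9.87 on the overexpressing arrays. That is a difference of 0.19 ± 0.074 (SE, 1.14-fold, limma adjusted p = 0.24), and its other probe set gave 0.18. CDT1, which brings the helicase to origins, lay the other way, at 9.73 and 9.72 against 9.45 and 9.62, a difference of -0.19 ± 0.087 (adjusted p = 0.33). GMNN, encoding geminin, the inhibitor of CDT1, was at 11.50 and 11.46 against 11.59 and 11.54, a difference of 0.082 (adjusted p = 0.66).

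On its weaker probe set CDT1 was at 8.07 and 8.11 in the knock-down arrays and at 7.54 and 7.73 in the overexpressing arrays. This difference, -0.46 ± 0.096, was the most negative among the 77 probe sets, and it is singled out after its values were seen. In the fit over all probe sets it did not pass (adjusted p = 0.078). It passed with an intensity trend in the variances (adjusted p = 0.024), after a further quantile normalization (0.049) and with dim probe sets left out (0.033). It missed with the replicate block (0.12), with centred arrays (0.067) and with 1 array left out (0.21 to 0.40). Both probe sets of CDT1 put the overexpressing arrays below the knock-down arrays. On 45.1% of all probe sets the groups did not overlap, in either direction.

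On their brightest probe sets the 6 subunits of the MCM helicase ran from -0.073 to 0.076, and in none of them did the groups separate. MCM6, the member with the widest shift, was at 11.39 and 11.45 in the knock-down arrays and at 11.44 and 11.56 in the overexpressing arrays, a difference of 0.076. MCM2 (-0.059), MCM3 (-0.056), MCM4 (-0.059) and MCM5 (-0.073) lay just below 0 and MCM7 (0.058) just above it. The overexpressing arrays could differ from each other by more than that: MCM2 was at 10.75 and 11.07 there and at 10.91 and 11.02 in the knock-down arrays. Without overexpressing replicate 1, MCM2 (0.10), MCM3 (0.012) and MCM5 (0.052) lay above 0. MCM4 has 5 probe sets, which gave -0.17 to 0.096. On those at -0.17 and -0.13 both overexpressing arrays lay below both knock-down arrays, and on the others the groups overlapped. Over all probe sets, the groups did not overlap on 45.1%. The dim probe set of MCM6, with values of 3.99 to 4.49, gave -0.24.

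Among the genes that activate the helicase, GINS1 had the largest difference downwards of all 41 genes on their brightest probe sets. It was at 9.91 and 9.88 in the knock-down arrays and at 9.69 and 9.64 in the overexpressing arrays. Thus the groups did not overlap, as in 46.9% of all genes and 57.6% of genes above the median level. The difference was -0.23 ± 0.074 (SE, limma adjusted p = 0.17), with an interval of -0.41 to -0.048, and GINS1 has 1 probe set. Its partners in the complex did not share that size: GINS2 was at 10.48 and 10.45 against 10.51 and 10.50 (0.043), and GINS3 gave -0.14 with overlapping groups. CDC45, which completes the active helicase, differed by -0.061 and MCM10, a factor of helicase firing, by 0.080.

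Genes of the sliding clamp and its loader lay close to 0 on their brightest probe sets. PCNA, the clamp, was at 12.58 and 12.49 in the knock-down arrays and at 12.65 and 12.48 in the overexpressing arrays, and its difference of 0.034 had an interval of -0.19 to 0.26. RFC3, a subunit of the loader, was at 10.06 and 9.98 against 9.97 and 9.84, a difference of -0.11 (adjusted p = 0.56). The other loader subunits RFC2 (-0.060), RFC4 (0.062) and RFC5 (-0.059) were closer to 0. The groups did not overlap in RFC3, RFC4 and RFC5, which held for 46.9% of all genes. Weaker probe sets gave -0.016 and -0.24 for RFC3, and -0.020 and -0.20 for RFC5. That at -0.24 had an unadjusted p of 0.049 and an adjusted p of 0.30 in limma over all probe sets. The trimer RPA, which coats unwound DNA, was also close to 0: RPA1 gave -0.063, RPA2 0.060 and RPA3 -0.00645. RPA1 was at 10.93 and 11.04 against 10.86 and 10.98, and RPA3 at 11.47 and 11.53 against 11.54 and 11.44, so that the groups overlapped in both.

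All 5 polymerase and primase genes lay below 0, as did 56.4% of all genes and 60.3% of genes above the median level. Their median was -0.090, and none passed or had an unadjusted p under 0.05. Without overexpressing replicate 1, 3 of the 5 lay below 0 and the median was -0.018. POLD1 was at 8.89 and 9.08 in the knock-down arrays and at 8.60 and 9.02 in the overexpressing arrays. Overexpressing replicate 1 was the low array: without it the difference of -0.17 became 0.034, and without overexpressing replicate 2 it was -0.38. POLA1, the catalytic subunit of the polymerase that starts strands with primase, differed by -0.14 and POLE2, a subunit of polymerase epsilon, by -0.090. In both the groups did not overlap, which held for 46.9% of all genes and 57.6% of genes above the median level. PRIM1, the catalytic primase subunit, was at 10.62 and 10.67 against 10.57 and 10.69 (-0.0098), and POLD3, a further subunit of polymerase delta, differed by -0.071.

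Of the genes that finish lagging strands, FEN1, the flap nuclease, was at 11.38 and 11.36 in the knock-down arrays and at 11.46 and 11.55 in the overexpressing arrays. Its difference was 0.14 (limma adjusted p = 0.43) and its other probe set gave 0.20, both without overlap of the groups. That held for 46.9% of all genes and 45.1% of all probe sets. LIG1, the ligase that seals the fragments, lay at -0.061 with overlapping groups.

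Nucleotide supply held the largest positive difference on the brightest probe sets, in RRM2. It was at 11.60 and 11.53 in the knock-down arrays and at 11.77 and 11.82 in the overexpressing arrays, and its other probe set was at 10.82 and 10.73 against 10.96 and 10.99. Groups did not overlap on 45.1% of all probe sets. Both probe sets of RRM2 had every overexpressing array above every knock-down array, by 0.23 ± 0.077 (SE, 1.17-fold) and 0.20. The limma adjusted p of the brighter was 0.18, and it was 0.016 with an intensity trend and robust moderation of the variances, where RRM2 alone of the 41 genes passed. RRM1, the partner subunit of the same enzyme, was at 11.66 and 11.65 against 11.55 and 11.62, a difference of -0.075. The thymidine genes lay close to 0: TYMS, encoding thymidylate synthase, was at 12.70 and 12.67 against 12.69 and 12.66 (-0.016), and TK1, encoding thymidine kinase, differed by 0.0053.

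Of the genes that supply and deposit histones, SLBP, which binds the histone mRNA stem loop, was at 10.68 and 10.66 in the knock-down arrays and at 10.76 and 10.78 in the overexpressing arrays (0.099, adjusted p = 0.56). CHAF1A, the large subunit of chromatin assembly factor 1, gave different answers by probe set. Its brightest was at 8.70 and 8.88 against 8.71 and 8.96, a difference of 0.046. Another was at 8.28 and 8.57 against 8.75 and 9.35, a difference of 0.62 ± 0.21 (SE, limma adjusted p = 0.21 over all probe sets) with 0.59 between the overexpressing arrays themselves. The remaining probe sets gave 0.18 and 0.089, so that all 4 lay above 0 and CHAF1A was the only gene whose probe sets spanned more than 0.5.

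**Figure D3:**
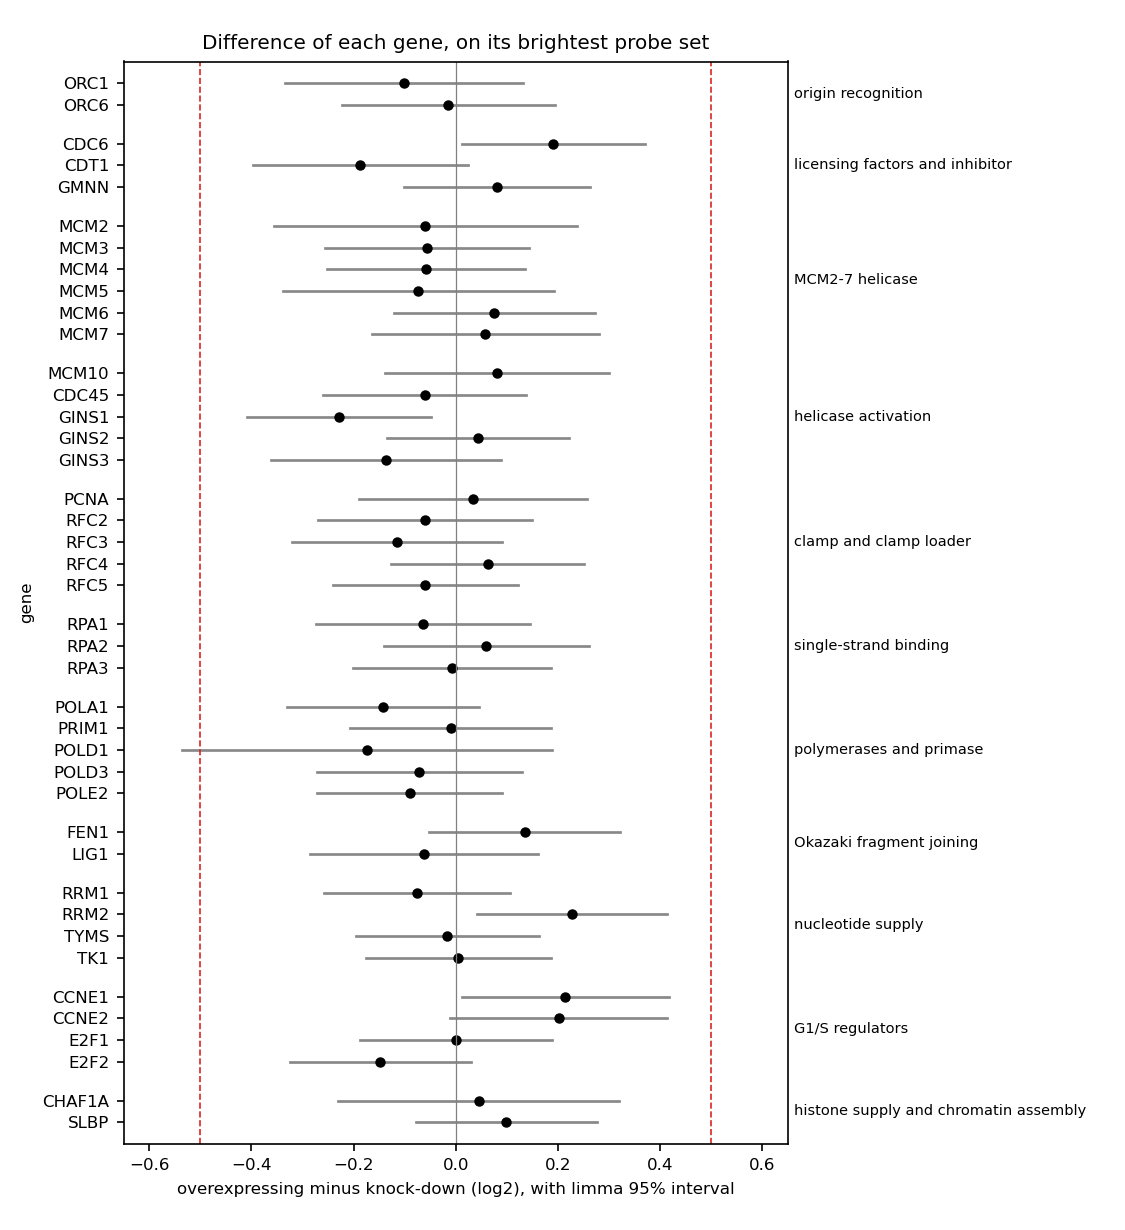
Overexpressing minus knock-down difference in log2 (horizontal axis) of each gene (vertical axis, by role) on its brightest probe set, as a point with its limma 95% interval, and dashed lines at 0.5 either side of 0. All intervals but that of POLD1, which reaches -0.54, lie between the dashed lines, and 4 exclude 0 before adjustment.

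None of the 77 probe sets passed over all probe sets in limma, against 2.83% of the 41091, and 5 had an unadjusted p under 0.05, against 16.3%. The groups did not overlap on 36 of the 77, against 45.1%. Of the 24 genes with more than 1 probe set, 16 had all of them on the same side of 0, 8 above and 8 below, and 8 were mixed. Genes with all probe sets above 0 included CDC6, FEN1, RRM2, CCNE1, CCNE2, MCM7 and MCM10, and genes with all below included CDT1, E2F2, MCM5 and GINS3. Probe sets of 1 gene share the RNA and are not replicates of the condition.

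**Figure D4:**
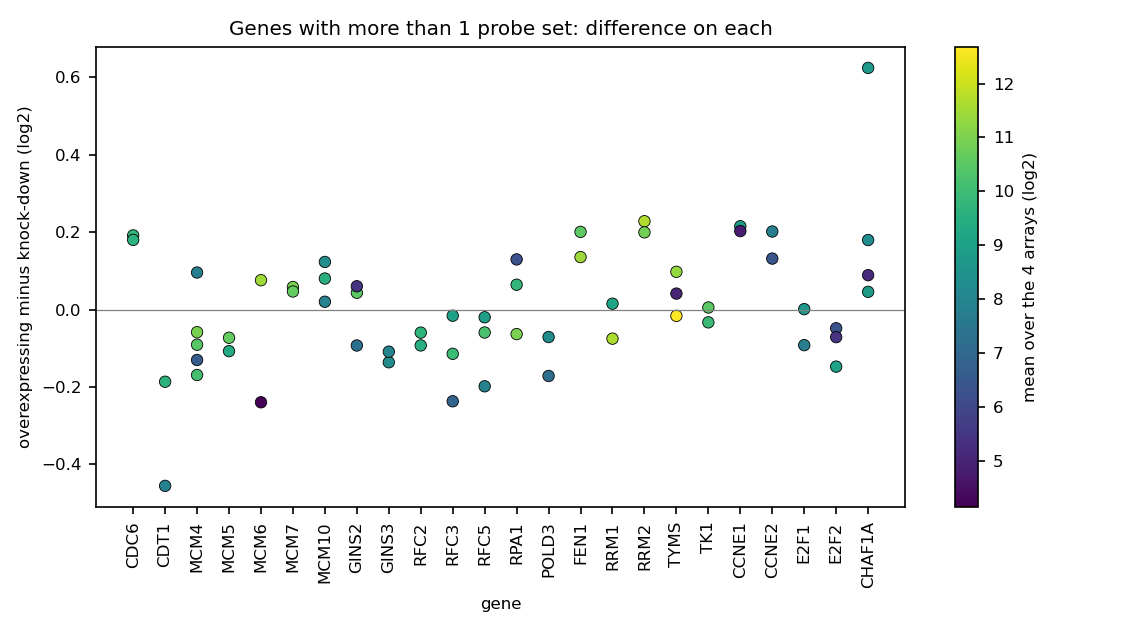
Overexpressing minus knock-down difference in log2 (vertical axis) on each probe set of the 24 genes with more than 1 (horizontal axis), coloured by the mean over the 4 arrays in log2. The probe sets of CDC6, RRM2 and CCNE1 nearly coincide, whereas those of CHAF1A run from 0.046 to 0.62 and those of CDT1 from -0.46 to -0.19.

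Replicate arrays of the overexpressing group also differed among these genes. Overexpressing replicate 2 was above replicate 1 for 27 of the 41 genes (median gap 0.065), against 50.5% of all genes and 62.8% of genes above the median level. Knock-down replicate 2 was above replicate 1 for 15 (median gap -0.017), against 51.5% of all genes and 57.3% of genes above the median level. The widest gap was that of POLD1 in the overexpressing arrays, 0.42. Accordingly the count of genes below 0 was 17 without overexpressing replicate 1 and 27 without overexpressing replicate 2, and the median was 0.013 and -0.049. In 2 against 2 arrays the smallest exact two-sided permutation p for 1 value is 0.333, so single genes rest on the spread shared across genes.

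Other genes of the same processes were read from 5 lists, of which 96 of 100 genes were measured and named here. Only BARD1, the partner of BRCA1 in repair, passed, and it fell: it was at 8.84 and 8.83 in the knock-down arrays and at 8.43 and 8.47 in the overexpressing arrays, a difference of -0.39 ± 0.074 (SE, limma adjusted p = 0.042). It also passed with an intensity trend (limma adjusted p = 0.010), centred arrays (0.037), a further quantile normalization (0.036), dim genes left out (0.010) and _at probe sets alone (0.049). It missed with any 1 of the 4 arrays removed (difference -0.41 to -0.36) and with the replicate number as a block (adjusted p = 0.084). As the mean of its probe sets it missed too (0.097), and the weaker ones gave -0.32 and -0.16. In the fit over all probe sets its brightest also missed (adjusted p = 0.074). Besides BARD1, none of the 96 passed, against 4.77% of all genes. Including BARD1, 10 had an unadjusted p under 0.05 in limma, against 18.6% of all genes. The same shares of all genes stand beside the counts of each list below.

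Of 17 other genes of origin recognition, licensing and firing, none passed (2 at an unadjusted p under 0.05), with a median of 0.0045. DBF4B, an activator of the CDC7 kinase, had the largest difference (-0.35, adjusted p = 0.12), which was -0.068 (adjusted p = 0.72) as the mean of its probe sets. It was -0.24 without overexpressing replicate 1, and it passed with dim genes left out (adjusted p = 0.046). Of 19 genes of the polymerases, clamp loaders and fork, none passed or had an unadjusted p under 0.05, with a median of -0.0045 and the largest difference in CHTF18, of an alternative clamp loader (-0.19, and -0.32 to -0.067 with 1 array left out). Of 18 genes of nucleotide supply, none passed (1 at an unadjusted p under 0.05), with a median of -0.045 and the largest difference in SHMT1, a folate enzyme (-0.29, adjusted p = 0.18). SHMT1 was -0.089 as the mean of its probe sets, 0.12 on _at probe sets alone and -0.18 without overexpressing replicate 2. Among the 20 genes of chromatin assembly and repair, BARD1 aside, none passed, and the median was 0.0025.

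Control of cyclin E and E2F held the widest differences. None of 22 genes passed, and the median was 0.050. An unadjusted p under 0.05 was seen for 4 of them, against 18.6% of all genes. CDKN1A, encoding the CDK inhibitor p21, was at 8.48 and 8.66 in the knock-down arrays and at 9.01 and 9.29 in the overexpressing arrays. Its difference of 0.58 ± 0.12 (SE, 1.50-fold) just missed in limma (adjusted p = 0.053). It passed in 6 of 10 other fits (lowest adjusted p = 0.0060) and missed whichever array was left out (highest 0.31). The other inhibitors of its family, named after their values were seen, lay on both sides: CDKN1C, encoding p57, gave 0.43 (adjusted p = 0.16) and CDKN1B, encoding p27, -0.28 (adjusted p = 0.11). The value of CDKN1C was 0.23 without knock-down replicate 1 and 0.63 without knock-down replicate 2. With an intensity trend CDKN1C (adjusted p = 0.047) and CDKN1B (0.022) passed, the latter also with dim genes left out (0.033). The groups did not overlap in any of the 3, as in 46.9% of all genes and 57.6% of genes above the median level.

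**Figure D5:**
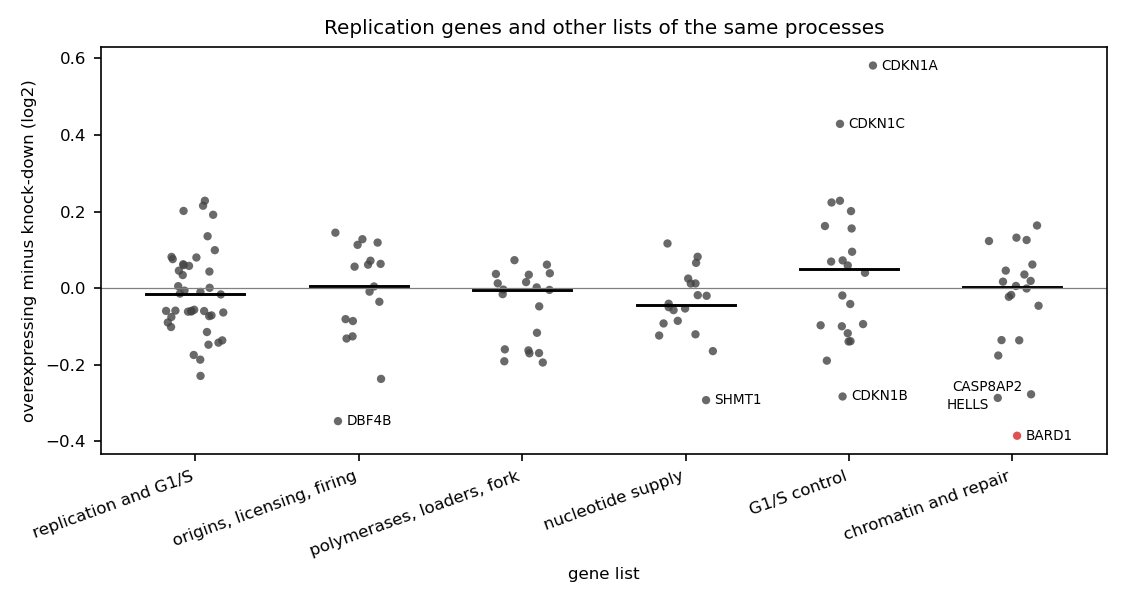
Overexpressing minus knock-down difference in log2 (vertical axis) of the 41 genes and of 5 other lists of the same processes (horizontal axis); each point is a gene, bars are medians, red marks an adjusted p under 0.05 and genes beyond 0.25 are named. The medians lie between -0.045 and 0.050, BARD1 is the only red point, and CDKN1A is the highest at 0.58.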

How the data were processed

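Total RNA of 4 SW480 samples was measured on Affymetrix arrays. The deposited log2 values were made by the authors with RMA; the submitters' processing notes name affy and no version. That method corrects background, equalises the arrays and summarises probe sets, and gives no detection call, so folds of dim probe sets are compressed. Precision is limited by having 2 arrays a group.

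Of 54675 probe sets, 41091 had 1 symbol and entered the fits; symbols were updated through a RefSeq table. Each gene was read from its probe set with the highest mean. Groups were compared with limma 3.58.1 in R 4.3.3 (lmFit, eBayes, two-sided, Benjamini-Hochberg over all 19775 genes or all probe sets, threshold 0.05), with 2 residual degrees of freedom and a prior worth 4.17; the code was tested on simulated data. Probe sets of different genes differ in brightness for technical reasons. Levels were compared between genes only for ranks of means, the filter on dim features and the highest mean in each role. Such ranks are rough and are no detection call.

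The members and lists were chosen with earlier results of these data known. Values per array were given for members past the threshold, for the largest difference and highest mean in each role, for probe sets spanning more than 0.5, and for the 4 largest differences. From each other list the genes past the threshold were named or, failing those, the gene with the largest difference. Others were added to complete an account. Alternatives were an intensity trend, the replicate number as a block, other scaling, a filter on dim features, other choices of probe set, other thresholds and leaving out arrays. Motifs were searched on both strands.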

Additional observations from a re-analysis of the deposited data

How the results depend on the processing

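Among the 41 genes the count past the threshold stayed at 0 in every alternative but the intensity trend, where it was 1 (RRM2). By probe set it was 2 with the trend (RRM2 and CDT1) and 1 (CDT1) with a further quantile normalization, with dim features left out and at an adjusted p of 0.1. All genes past the threshold numbered 944, but 1822 with the trend, 520 with the replicate block, 1561 and 377 at an adjusted p of 0.1 and 0.01, and 172 to 237 with 1 array left out; probe sets numbered 1164, but 2434, 589, 2050, 428 and 89 to 164. With the trend 889 of the 1822 genes were higher, against 542 of 944. The median difference of the 41 genes was -0.058 over the 32 that have a probe set named _at without _s or _x, and -0.049 to 0.013 with 1 array left out. The replicate numbers share no stated origin. Deviations of same-numbered arrays correlated at 0.15 over all genes, at 0.23 over genes above the median level and at 0.57 over the 41 genes. With the replicate block none of the 41 genes passed (lowest adjusted p = 0.18, GINS1), BARD1 missed (0.084) and CDKN1A passed (0.048).

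The alternatives for the other lists and for the intervals were chosen after seeing the data. In the other lists, chromatin and repair gave 2 genes with the trend, with dim features left out and at 0.1, and 0 with the block, with the mean of probe sets, at 0.01 and with any 1 array left out. G1/S control gave 3 with the trend, 2 with dim features left out, and 1 with the block, centring, quantile normalization, the mean of probe sets and at 0.1. Origin genes gave 1 with dim features left out. The lists of the fork and of nucleotide supply stayed at 0.

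Of 442 recomputed differences of the 41 genes, 34 changed sign, 24 of them with 1 array left out. The settings were also applied, chosen after seeing the data, to genes outside the rule for named genes. The mean of probe sets gave -0.082 for MCM6, 0.043 for RPA1, 0.041 for TYMS, -0.014 for TK1 and -0.046 for E2F1; _at probe sets alone gave -0.093 for GINS2, -0.033 for TK1 and, in the other lists, 0.12 for SHMT1. Quantile normalization gave 0.0018 for ORC6, and centring gave -0.0098 for TK1 and -0.014 for E2F1. With 1 array left out, ORC1 ran from -0.21 to 0.0071, ORC6 from -0.087 to 0.059, MCM2 from -0.22 to 0.10, MCM3 from -0.12 to 0.012, MCM5 from -0.20 to 0.052, MCM7 from -0.037 to 0.15, MCM10 from -0.014 to 0.17, CDC45 from -0.13 to 0.0061, PCNA from -0.055 to 0.12, RFC2 from -0.13 to 0.010, RPA2 from -0.0076 to 0.13, RPA3 from -0.055 to 0.042, PRIM1 from -0.069 to 0.050, POLD1 from -0.38 to 0.034, LIG1 from -0.15 to 0.029, TK1 from -0.027 to 0.038, E2F1 from -0.042 to 0.043 and CHAF1A from -0.079 to 0.17. The cause of these shifts was not tested.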
